A study of Homo sapiens with 151 samples.

Results

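YBX3 is a cold shock domain protein, also called CSDA, and its peak list is described here. The list was taken by its sample title, CSDA, and it held 861 of the 1471857 peaks deposited in 127 lists. The series comprised 151 samples, all from HepG2, a hepatoblastoma-derived liver cancer cell line: 127 ChIP-seq samples of DNA-associated proteins (DAPs), each carrying a FLAG tag and precipitated with an anti-FLAG antibody, and 24 input libraries that had no antibody step. Of the 127 lists, 121 were marked as preferred and hold 1410609 peaks. The reference was the other 120 preferred lists, in which a different tagged protein was precipitated from the same cell line. All 120 served to count sharing, and the main tests used the 114 with at least 861 peaks. The labels cite CETCh-seq, in which genome editing adds the tag to the endogenous gene, and give no treatment, time point or clone. Each protein had 1 list, so no value for YBX3 has a replicate error, and the sequencing depth behind the lists is unknown. Read counts were not analysed here.

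Cold shock domain proteins are conserved from bacteria to humans and bind single-stranded nucleic acids, RNA above all. In vertebrates the family, which includes YBX1, YBX2 and YBX3, is also known as the Y-box binding proteins. They were first described through the Y box, an inverted CCAAT motif in the promoters of MHC class II genes. YBX3 has been described as a regulator of mRNA stability and translation and as a partner of the tight junction protein ZO-1. The heterotrimer NFY is the best known factor that binds CCAAT in double-stranded DNA, commonly at promoters a short distance upstream of the transcription start site (TSS).

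The list was short. YBX3 stood seventh from the shortest of the 121 preferred lists, which had between 195 and 61748 peaks with a median of 8680. Of the YBX3 peaks, 858 had the same width of 356 bp with the summit, the position of strongest enrichment, at the midpoint. Signal, the deposited enrichment value of a peak, was highest at 218.98, had a median of 38.16 and was lowest at 11.76. It fell steeply among the first peaks, from 94.2 at rank 10 to 66.2 at rank 25 and 49.0 at rank 100. Only 39 peaks were above 60.

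The sequences below show what lay under the summits: first 4 of the strongest peaks, then peaks with a CCAAT box close to the summit, then strong peaks that no other list held. Each is the 100-bp window around a summit on the forward strand of hg38. In the first set capitals mark bases that match RE1, the element bound by the neuronal gene repressor REST. It was searched as TTCAGCACC, 2 free bases and GGACAGCG on either strand, with up to 3 mismatches, or as either part alone without a mismatch.
INSM2, chr14:35535310-35535409: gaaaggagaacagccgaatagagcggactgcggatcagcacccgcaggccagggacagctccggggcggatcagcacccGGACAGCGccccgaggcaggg
NPAS4, chr11:66421731-66421830: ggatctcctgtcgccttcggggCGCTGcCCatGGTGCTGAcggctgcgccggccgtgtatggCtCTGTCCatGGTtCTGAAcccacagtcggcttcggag
XKR7, chr20:31968532-31968631: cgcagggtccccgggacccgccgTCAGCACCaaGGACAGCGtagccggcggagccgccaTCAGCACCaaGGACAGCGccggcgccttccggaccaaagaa
ENSG00000232413, chr9:126082840-126082939: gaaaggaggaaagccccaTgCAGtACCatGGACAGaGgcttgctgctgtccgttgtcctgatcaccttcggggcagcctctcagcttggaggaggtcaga
In the second set capitals mark CCAAT or its reverse complement ATTGG. The first 4 windows are promoter peaks and the last is distal.
DNAJC11, chr1:6701982-6702081: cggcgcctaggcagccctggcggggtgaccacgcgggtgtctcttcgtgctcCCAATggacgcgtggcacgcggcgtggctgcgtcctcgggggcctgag
CDIP1, chr16:4538907-4539006: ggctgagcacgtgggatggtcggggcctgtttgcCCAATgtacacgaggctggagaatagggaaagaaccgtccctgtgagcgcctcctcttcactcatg
TINF2, chr14:24242640-24242739: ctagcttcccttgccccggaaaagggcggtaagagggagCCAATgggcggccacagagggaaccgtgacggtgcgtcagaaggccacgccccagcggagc
ZC3H6, chr2:112275452-112275551: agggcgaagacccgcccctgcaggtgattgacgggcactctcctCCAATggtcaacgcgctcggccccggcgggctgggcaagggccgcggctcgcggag
LINC02890, chr16:22670105-22670204: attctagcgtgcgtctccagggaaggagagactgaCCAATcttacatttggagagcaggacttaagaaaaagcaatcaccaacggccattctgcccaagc
The third set are the 3 strongest peaks in no other preferred list, counted by the central 100 bp of each peak. CCAAT is again in capitals where present.
ENSG00000263033, chr16:11189120-11189219: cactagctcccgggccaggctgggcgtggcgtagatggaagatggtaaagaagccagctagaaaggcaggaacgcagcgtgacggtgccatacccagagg
IPO4, chr14:24187119-24187218: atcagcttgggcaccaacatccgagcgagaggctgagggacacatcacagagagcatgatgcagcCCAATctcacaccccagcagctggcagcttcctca
RIPOR3, chr20:50673148-50673247: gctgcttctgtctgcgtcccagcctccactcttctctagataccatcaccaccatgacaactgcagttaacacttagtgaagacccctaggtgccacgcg

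The strongest YBX3 peaks lay at sites that nearly every list held. The 10 of highest signal were each in 114 to 119 of the 120 other preferred lists, and none had CCAAT in the summit window. The peak of highest signal, 218.98, lay in the coding exon of INSM2, a zinc finger gene of neuroendocrine cells, 1196 bp downstream of its TSS on chromosome 14. The next had a signal of 203.23 and lay in an intron of NPAS4, a neuronal bHLH-PAS transcription factor gene, 746 bp downstream of its TSS on chromosome 11. XKR7, which encodes an XK-related membrane protein, had the next peak, with a signal of 200.68 in its coding exon 431 bp downstream of its TSS on chromosome 20. These 3 peaks were the only ones narrower than 356 bp, the shortest of them 121 bp wide, and the XKR7 window printed above holds 2 copies of RE1.

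The remaining 7 of the 10 had signals of 127.71 to 94.20. They were nearest to the lncRNA ENSG00000232413, MIR7-3HG, the host transcript of a copy of miR-7, ZFPM1, which encodes a GATA cofactor, the homeobox gene NKX1-1, CPLX2, which encodes a complexin of synaptic vesicle release, HTR5A, a serotonin receptor gene, and LINC02371. Only the XKR7 and HTR5A peaks among the 10 were within 500 bp of a TSS. The CPLX2 peak was intergenic, 74531 bp upstream of its nearest TSS.

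RE1 with at most 2 mismatches was found at 30 of the 861 YBX3 summits (3.48%, 95% Wilson interval 2.45% to 4.93%) and in 1 of the 1722 flanking windows. All 30 were in regions bound by at least 31 lists. They made up 13 of the 25 strongest peaks and 20 of the 100 strongest. In the other 114 lists cut to the same length the median share was 6.27% (range 0% to 17.3%, highest in NPAS2), and 83 of them were above YBX3. RE1 was thus not particular to the YBX3 list.

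**Figure D1:**
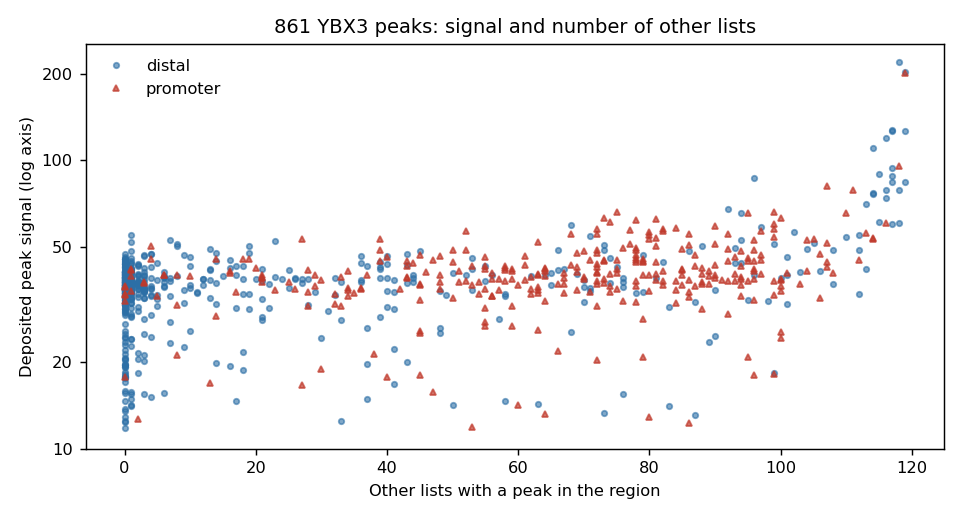
Deposited signal of the 861 YBX3 peaks (log axis) against the number of other preferred lists with a peak in the same region; triangles are promoter peaks and circles distal peaks. Peaks in no other list reach a signal of 47.24, and all signals above 60 lie at regions held by at least 73 other lists.

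By location, 319 of the 861 YBX3 summits (37.0%, 95% Wilson interval 33.9% to 40.3%) were at promoters, defined as within 500 bp of the canonical TSS of a protein-coding or lncRNA gene. All intervals of this kind cover counting error over peaks only, since the peaks of 1 list are not replicates. A further 274 (31.8%) were in introns, 149 (17.3%) were intergenic, 81 (9.41%) were in coding exons, 22 (2.56%) in untranslated exons and 16 (1.86%) in exons of non-coding genes. The promoter summits lay mostly within the transcribed region, with 235 downstream of the TSS and 84 upstream, and a median position 159 bp downstream. Only 63 of the 319 were within 100 bp of the TSS. Distal peaks had a median distance of 6.92 kb from a TSS, and 215 peaks were more than 10 kb away.

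The question of whether YBX3 differed from other DAPs was put to lists of equal length. Each other preferred list was cut to its 861 strongest peaks by signal, which left 114 lists. The 6 lists shorter than YBX3 were set aside. Each of 6 measures was tested by an exact two-sided permutation test in which every list in turn took the place of YBX3, with Benjamini-Hochberg adjustment over the 6 measures. The smallest p-value this design allows is 0.0087, which for 1 measure alone becomes 0.052 after adjustment, so that a single measure could not pass 0.05.

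Promoter peaks made up 37.0% of the YBX3 list and 53.9% ± 19.9 of the other lists (mean ± SD, n = 114), with values from 3.37% in NCOA2, a nuclear receptor coactivator, to 87.8% in THAP1, a THAP zinc finger protein. YBX3 was above 23 of the lists and below 91, and the difference of -16.8 percentage points lay within the spread between lists (exact permutation test, p = 0.40, adjusted p = 0.80). Over 12 alternatives the difference kept its sign and ran from -23.2 points with a TSS window of 200 bp to -1.75 points without chromosomes 2, 6, 14, 16, 17 and 20, with adjusted exact permutation p-values of 0.34 to 0.93.

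Sharing with other lists was where YBX3 stood nearest to the edge of the distribution. Of its peaks, 420 (48.8%) were in highly bound regions, those where at least 31 of the 121 lists had a peak, against 83.8% ± 19.1 in the other lists (mean ± SD, n = 114). Only 9 lists had a lower share, the lowest being ZNF865 with 14.1%, and the exact permutation p was 0.096 (adjusted p = 0.29). Peaks that no other preferred list held numbered 192 (22.3%) in YBX3, against 3.23% ± 8.68 in the other lists, whose median was 0.348%. Only ZNF329 (58.9%), ZNF160 (46.1%), ZFP90 (35.7%) and ZNF334 (33.7%), which are zinc finger proteins, were higher, and the exact permutation p of 0.043 became 0.26 after adjustment. Neither difference passed the threshold. YBX3 was used whole, down to its weakest peak, whereas longer lists kept only their strongest peaks. ZNF329, ZNF160, ZFP90 and ZNF334 had 13749, 12981, 8050 and 889 peaks at full length. With the other lists at full length the highly bound difference was -10.1 points (exact permutation p = 0.51, adjusted p = 0.74). That in unshared peaks was 15.04 points (exact permutation p = 0.026, adjusted p = 0.16). Against 34 lists under 5000 peaks, cut as before, they were -33.6 and 18.8 points. Nearest to YBX3 in length among the 114 were ZNF334 (889 peaks), LHX6 (1131), HMGN3 (1134) and ZNF783 (1250). Their highly bound shares were 38.8%, 65.6%, 47.2% and 79.2%. Their shares in no other list were 33.7%, 11.4%, 11.7% and 6.39%. The part that list length had in these shares was not tested.

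GC content of the summit window was 64.4% for YBX3 and 63.4% ± 5.32 for the other lists (mean ± SD, n = 114), with 57 lists above and 57 below. The difference was 1.06 percentage points (exact permutation p = 0.82, adjusted p = 0.90).

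**Figure D2:**
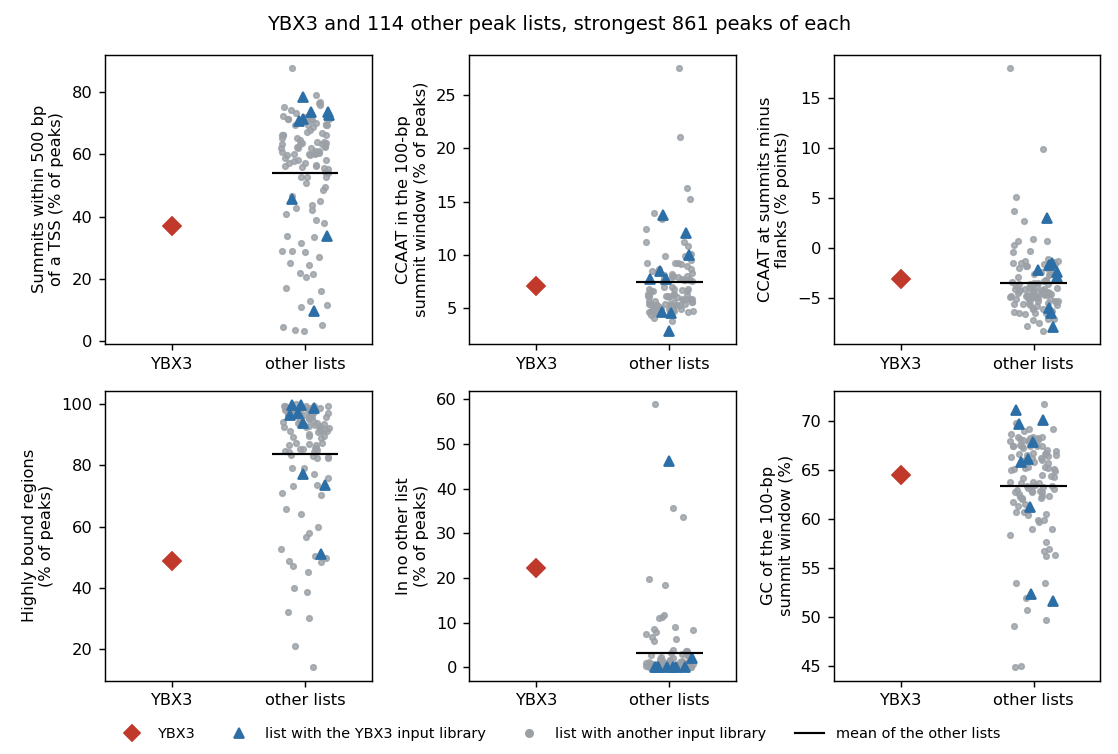
Each of 6 measures for the YBX3 list (diamond) and the 114 other preferred lists (points, with lists that share the YBX3 input library as triangles), each list cut to its 861 strongest peaks; the line is the mean of the other lists. YBX3 sits in the body of the distribution for CCAAT and GC content, and near its edge for highly bound regions (48.8%) and for peaks in no other list (22.3%).

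CCAAT was not enriched at YBX3 summits over windows 500 bp away. It was present on either strand in 61 of the 861 summit windows (7.08%, 95% Wilson interval 5.55% to 8.996%) and in 175 of the 1722 flanking windows centred 500 bp to either side (10.2%, interval 8.82% to 11.7%). GC content was 64.4% in the summit windows and 56.0% in the flanking windows, and its part in this contrast was not tested. In the other lists cut to 861 peaks the summit share was 7.48% ± 3.42 (mean ± SD, n = 114), and YBX3 was above 66 of them and below 48 (exact permutation p = 0.90, adjusted p = 0.90). The summit share minus the flank share was -3.08 percentage points for YBX3 and -3.56 ± 3.41 for the other lists (exact permutation p = 0.89, adjusted p = 0.90). A p-value of this size does not show that the lists were alike. The same measure did separate lists, since it was 18.002 points in PBX3, a homeodomain protein, 9.87 points in ZMYM4, a zinc finger protein, and 5.11 points in POU2F1, the octamer-binding protein.

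The position of CCAAT around the summits was also followed at finer distance. In the YBX3 list the share of 100-bp windows with CCAAT was 7.08% at the summit, 4.76% at 100 bp to the left and 6.74% at 100 bp to the right. In the PBX3 list it was 27.5% at the summit, 18.1% at 100 bp to the left and 19.05% at 100 bp to the right. The median of the other lists had its lowest value, 6.50%, at the summit. At 100 bp to the left and right it was 9.58% and 9.41%. Close to the summit YBX3 thus differed from this median, being higher at the summit than beside it. That difference was not tested.

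**Figure D3:**
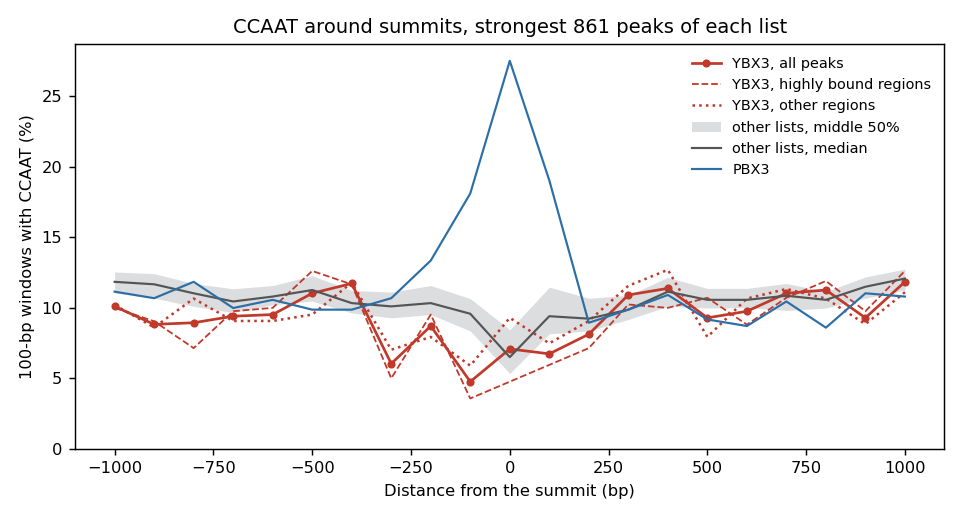
Share of 100-bp windows with CCAAT on either strand by distance from the summit, for the YBX3 list (all peaks, peaks in highly bound regions and the rest), PBX3, and the median and middle 50% of the other 114 lists. YBX3 has 7.08% at the summit and between 8.83% and 11.8% at 900 to 1000 bp, while PBX3 has a peak of 27.5% at the summit.

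Other CCAAT-like and cold shock motifs were searched in the same way. The extended CCAAT box CCAATCA was in 0.465% of YBX3 summit windows and 0.697% of flanking windows, and the Y-box core CTGATTGG in 0.348% and 0.407%. For the short single-strand motifs ascribed to cold shock domains, CATC was in 42.9% of summit windows and 45.8% of flanking windows, and CACC in 76.0% and 65.4%. The median summit share of the other lists was 35.7% for CATC and 69.7% for CACC. The CACC share was higher at summits than flanks by 10.6 points for YBX3 and by a mean of 7.62 points in the other lists (exact permutation p = 0.57, adjusted p = 0.91 over 29 motifs). Windows of double-stranded genome cannot show which strand or which RNA a protein touched.

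None of the 29 motifs passed the exact permutation test after Benjamini-Hochberg adjustment, and 0 had an unadjusted p under 0.05. The lowest p was 0.061 for the HNF1 motif GTTAATNAT, which was in 0% of YBX3 summit windows and 0.407% of flanking windows. With 29 motifs, 1 motif alone could not have gone below an adjusted p of 0.25. The E-box CACGTG was in 6.04% of YBX3 summit windows and 2.32% of flanking windows, a difference of 3.72 points against a mean of 7.96 points in the other lists (exact permutation p = 0.43, adjusted p = 0.91). The forkhead motif TGTTTAC, which is bound by the liver FOXA factors, was in 0% of YBX3 summit windows and 1.39% of flanking windows. The other lists had a median summit share of 1.28%. In 113 of them the summit share minus the flank share was above that of YBX3 (exact permutation p = 0.14, adjusted p = 0.81).

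Words of 6 letters were ranked by the ratio of their share at summits to their share at flanks, among the 585 words in at least 5% of summit windows, counting each word with its reverse complement. Of these words, 455 had a higher share at summits, where GC content was 64.4% against 56.0% in the flanks. The part of GC content in the ratios was not tested, and no values of other lists are given for these words. The 8 of highest ratio all held CG. ACGTGC led, with 7.08% at summits, 1.80% at flanks and a ratio of 3.94. It was followed by ACGCGC (ratio 3.20), CGCACG (3.08), CGCGCA (2.88), CACGCG (2.87), CGCGTC (2.85), CGTCGC (2.76) and ACGCGG (2.67). No word holding CCAAT or ATTGG was among the 585. CCAAT itself was in only 7.08% of summit windows, spread over 8 such words. A word of this kind could thus hardly reach the 5% needed, and its absence says nothing about CCAAT.

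The YBX3 list was not uniform, and its parts differed most by how many other lists shared a region. The 192 peaks in no other list had 6 promoter peaks (3.13%), a median distance of 12.8 kb from the nearest TSS and a GC content of 57.8% ± 7.68 (SD over peaks). The 142 peaks shared with 1 to 5 other lists had 7.04% promoter peaks and a GC content of 60.4%, and the 110 shared with 6 to 30 had 28.2% and 63.4%. The 417 shared with 31 or more had 65.2% promoter peaks, a median distance of 0.331 kb and a GC content of 69.1% ± 7.60. The median signal was 35.9, 36.7, 38.6 and 40.4 in the same order, and the highest signal among peaks in no other list was 47.2.

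CCAAT showed no such graded order. In the 192 peaks of no other list it was in 10.9% of summit windows (95% Wilson interval 7.27% to 16.1%) and 10.7% of flanking windows. The peaks shared with 1 to 5 other lists had 6.34% and 6.69%, and those shared with 6 to 30 had 10.0% and 8.18%. In the 417 peaks of widely shared regions it was in 4.80% of summit windows (3.13% to 7.29%) and 11.6% of flanking windows (9.63% to 13.98%), so that these intervals did not overlap. GC content was 69.1% at the summits and 57.9% in the flanks of these 417 peaks, and 57.8% and 51.3% in the peaks of no other list. The part that GC content had in the CCAAT shares was not tested.

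**Figure D4:**
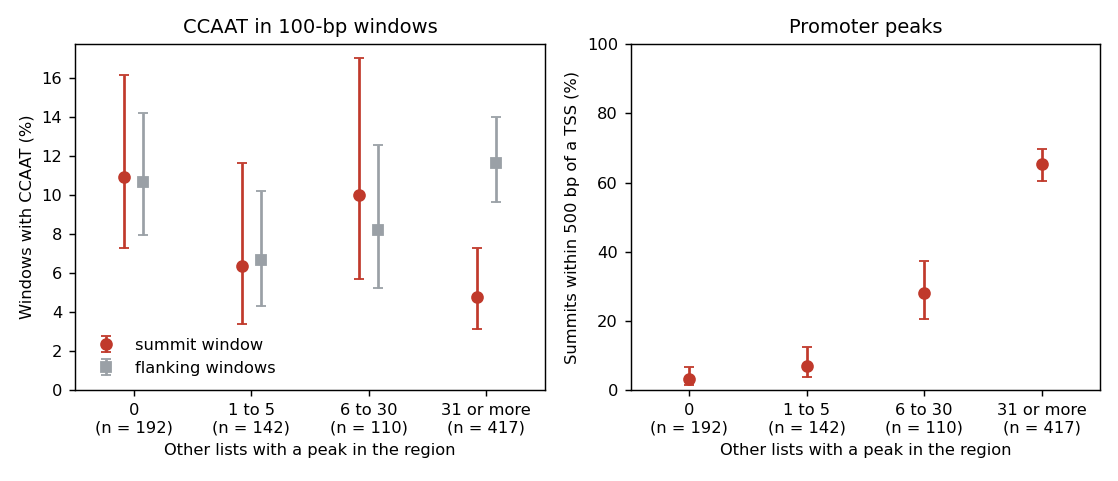
YBX3 peaks split by the number of other preferred lists with a peak in the region (n in brackets): left, share of 100-bp summit and flanking windows with CCAAT; right, share of promoter peaks, all with 95% Wilson intervals. Promoter share climbs from 3.13% to 65.2%, and in the most shared regions the CCAAT share is 4.80% at summits and 11.6% in the flanks. The intervals cover counting error over peaks of 1 list only.

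Outside highly bound regions YBX3 kept 441 peaks, of which 45 were at promoters and 396 were distal. Over these, CCAAT was in 9.30% of summit windows, against a mean of 9.53% in 110 other lists cut to the same number after the same removal (exact permutation p = 0.95, adjusted p = 0.95). The summit share minus the flank share was 0.567 points for YBX3 and -1.91 points on average in the other lists (exact permutation p = 0.37, adjusted p = 0.60). Both differences lay within the spread between lists.

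CCAAT lay within 25 bp of the summit in 30 YBX3 peaks, 9 at promoters and 21 distal. The strongest promoter peak of this kind was at DNAJC11, which encodes a mitochondrial J-domain protein, with a signal of 62.42, a summit 216 bp upstream of the TSS and a CCAAT box 4 bp from the summit. CDIP1, a gene of p53-linked apoptosis, followed with 44.56, TINF2, which encodes a shelterin subunit of telomeres, with 43.10, and ZC3H6, a CCCH zinc finger gene, with 42.38. The regions of these 4 peaks were in 81, 107, 94 and 88 other lists. THTPA, which encodes thiamine triphosphatase, had 40.71. Its peak region was shared with 16 other lists, but 101 other lists had a summit within 500 bp of its TSS. EXD1, a gene of the piRNA pathway in mouse, had 37.03, and the rest of the 8 were lncRNA promoters.

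Among distal peaks, those of highest signal with CCAAT near the summit were an intergenic peak 56672 bp upstream of LINC02890 (signal 46.94), intronic peaks in IPO4, an importin gene (46.17), and TTLL9, a tubulin-modifying enzyme gene (44.43), and a peak in an exon of the lncRNA ENSG00000232358 (41.24). The IPO4 and ENSG00000232358 peaks were in no other list, while the TTLL9 peak was in 39.

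The 10 strongest peaks that no other list held had signals of 47.24 to 43.76, and their ranks in the YBX3 list ran from 121 to 190. The first was intergenic, 7007 bp upstream of the lncRNA ENSG00000263033 on chromosome 16. Introns of IPO4, RIPOR3, JPH4, a junctophilin gene, CIROP and CARHSP1 held 5 of the 10. CARHSP1 encodes another small cold shock domain protein, and its intronic peak lay 9890 bp downstream of the TSS with a signal of 43.82. CIDEB, a lipid droplet gene of the liver, was nearest to a peak in an untranslated exon of NOP9, a pre-rRNA processing gene, and a peak in a coding exon of NAGLU, a lysosomal enzyme gene, had the lncRNA ENSG00000266929 as its nearest TSS. The last 2 were intergenic, nearest to the lncRNA TRERNA1 and to CHMP4B, an ESCRT-III gene. All 10 lay on chromosomes 14, 16, 17 and 20.

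How many peaks counted as unshared depended on the rule. By the merged central 100 bp of each peak 192 were in no other list, by summits within 50 bp it was 254, and by any overlap of whole peaks it was 102. Of the 192, 90 overlapped at least 1 other list by whole peaks. Among the 10 strongest of them only the CIROP peak overlapped none. The CARHSP1 intron peak overlapped the wider peaks of a merged region of 105 other lists. The peaks of the third set of printed windows, near ENSG00000263033, IPO4 and RIPOR3, overlapped regions of 3, 2 and 6 other lists.

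YBX3 peaks were concentrated on a few chromosomes. Chromosome 20 had 178 peaks (20.7%), chromosome 2 had 128 (14.9%), chromosome 16 had 126 (14.6%), chromosome 14 had 82 (9.52%), chromosome 17 had 81 (9.41%) and chromosome 6 had 56 (6.50%). These 6 chromosomes held 651 of the 861 peaks (75.6%), but 24.5% of the genome length and 27.5% of protein-coding TSSs. The 6 were singled out after their values were seen, so that no test is given.

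The same chromosomes were high in other lists, though less so. In the 114 other lists cut to 861 peaks their share was 59.8% ± 8.30 (mean ± SD), with a range of 35.9% to 73.6%, so that YBX3 had the highest value of all. At full length the other lists had a median of 50.0%. On chromosome 16 no other list reached the YBX3 share, whose counterpart was a median of 9.52% and a maximum of 13.1%, and on chromosome 20 only 1 list was at or above it, with a median of 12.7% and a maximum of 21.8%. On chromosome 14 the median was 6.74%, and 10 lists were at or above YBX3. Chromosomes 2 and 17 were close to the other lists, with medians of 13.9% and 9.29% and 40 and 48 lists at or above YBX3. On chromosome 6 the YBX3 share was below the median of the other lists, 8.48%.

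On chromosome 14, 79 of the 82 YBX3 peaks lay between 20 and 40 Mb, a stretch that makes up 18.7% of the chromosome, and 24 of these were in no other list. The stretch thus held 96.3% of the chromosome 14 peaks of YBX3, against a median of 80.3% in the other lists. HepG2 is known to carry extra copies of chromosomes 2, 14, 16, 17 and 20 and of part of chromosome 6. Copy number was not measured in these files, and its part in the counts was not tested.

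**Figure D5:**
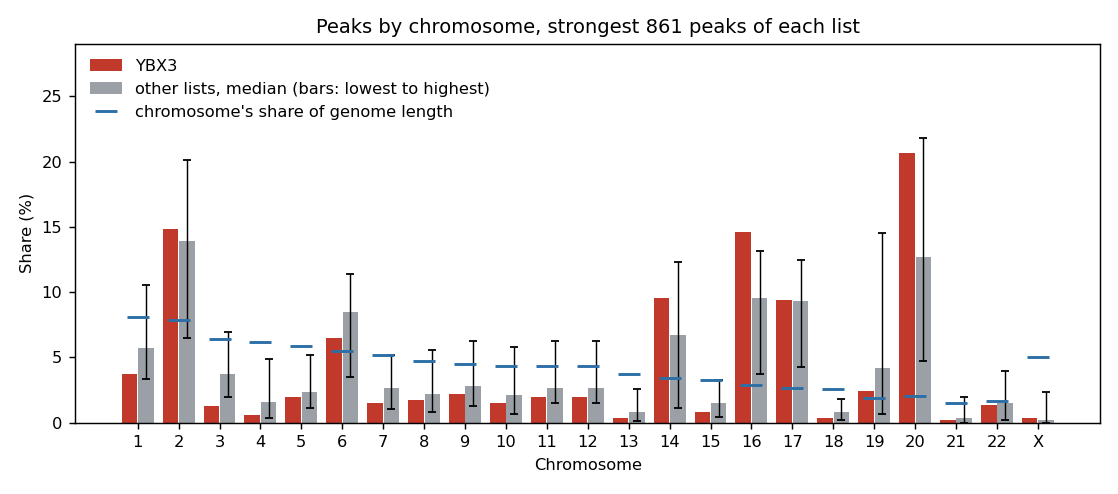
Share of peaks on each chromosome for the YBX3 list and for the median of 114 other preferred lists, each cut to 861 peaks (error bars: lowest to highest list), with each chromosome's share of genome length as a dash. YBX3 has 20.7% of its peaks on chromosome 20 and 14.6% on chromosome 16, against medians of 12.7% and 9.52%.

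The concentration was greatest among the peaks that other lists lacked. Of the 192 peaks in no other list, 176 (91.7%) were on the 6 chromosomes, 53 of them on chromosome 20 and 36 on chromosome 16. Of the 420 highly bound peaks 66.7% were there, and of the 25 strongest peaks 8. Within the list, the 651 peaks on the 6 chromosomes had 33.3% promoter peaks, 43.0% highly bound peaks and 27.0% in no other list. The 210 peaks on the remaining chromosomes had 48.6%, 66.7% and 7.62%.

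With the 6 chromosomes removed from every list and each list cut to 210 peaks, an alternative chosen after seeing the data, YBX3 moved towards the other lists. Its share of peaks in no other list was 7.62%, against a mean of 4.06% in 115 other lists (exact permutation p = 0.77, adjusted p = 0.93), so the difference of 19.1 points over all chromosomes shrank to 3.56 points. Its share in highly bound regions was 66.7%, against 81.0% (exact permutation p = 0.57, adjusted p = 0.93). The 6 chromosomes were picked for their many YBX3 peaks and held 176 of the 192 peaks in no other list. A smaller difference was thus built into the choice, and these p-values do not test what the chromosomes contribute.

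YBX3 shared its input library with 9 other preferred lists, namely KLF15, MED12, RCOR3, SIX5, STAT5A, ZNF160, ZNF235, ZNF275 and ZNF593. At equal length YBX3 had 48.8% of its peaks in highly bound regions, against 51.1% to 99.8% in these 9 lists, and 22.3% in no other list, against 0% to 46.1%, where only ZNF160 was above YBX3. Within this set an exact permutation test cannot go below p = 0.10, and that is its value for highly bound regions (adjusted p = 0.60).

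Regions that YBX3 shared with few lists were often shared with these 9. Of the 142 peaks in 1 to 5 other lists, 65 (45.8%) had a peak of a same-input list, and 25 had no other kind. Same-input lists made up 26.0% of the 285 list entries in these regions, and 6.31% of the entries in all regions held by 1 to 5 of the other lists. In regions of 31 or more other lists they made up 9.92%. Whether the common input had a part in this was not tested.

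Overlap with single lists was low. At equal length, the share of YBX3 summits within 50 bp of a summit of another list ran from 0% to 11.6% with a median of 7.55%, and because the lists have equal length the share of the other list was the same. The 5 highest were ZNF235 (11.6%), STAT5A and ZNF593 (11.4% each), ZNF827 (11.03%) and TEAD2 (10.9%), the first 3 of which had the YBX3 input. The 3 lowest were TRIM24 (0.813%), ZBTB12 (0.581%) and ZNF865 (0%). The 9 same-input lists ran from 1.16% in MED12 to 11.6%, with a median of 9.06%. The 105 lists with other inputs ran from 0% to 11.03%, with a median of 7.43%. Against full-length lists, the 9 same-input lists held 16.8% to 27.2% of the YBX3 summits, with STAT5A highest, and the 105 lists with other inputs 1.16% to 19.7%.

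YBX3 summits lay within 500 bp of the canonical TSS of 292 of 20033 protein-coding genes, so that percent called was 1.46%. For lncRNA genes it was 75 of 18866 (0.398%). Of the 292 promoters, 271 (92.8%) were also held by at least 31 of the lists, with a median of 70 other lists, and 197 (67.5%) were on the 6 chromosomes named above. Only CTRB2, a chymotrypsinogen gene on chromosome 16, had a YBX3 peak and no other (signal 32.49), and MT1H, a metallothionein gene also on chromosome 16, had 1 other list (signal 36.64). These 2 were named after their values were seen, as the promoters with the fewest other lists.

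The 10 protein-coding promoters of highest signal began with XKR7 (200.68) and HTR5A (95.66), both described above. LEMD3, which encodes an inner nuclear membrane protein, followed with 78.83, TCEA2, a transcription elongation factor gene, with 66.15, GCFC2 with 65.59 and EPM2A, which encodes the glycogen phosphatase laforin, with 63.19. NAE1, which encodes a subunit of the NEDD8-activating enzyme, had 62.97, DNAJC11 62.42 and ARHGDIA 62.34. The last place, with 61.10, was a single peak near the neighbouring TSSs of GLS2, a glutaminase gene, and ENSG00000285528. Counted by summits within 500 bp of the TSS, these promoters were in 75 to 119 other lists.

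Bound promoters were not richer in CCAAT. In the window from 250 bp upstream to 50 bp downstream of the TSS, CCAAT was present in 105 of the 292 promoters with a YBX3 peak (36.0%, 95% Wilson interval 30.7% to 41.6%). It was present in 35.9% of the 13007 promoters that only other lists held, and in 36.1% of all 20033. Among promoters of at least 31 lists the share was 35.8% with a YBX3 peak and 36.8% without. Promoters with CpG-rich sequence (GC content over 50% and an observed to expected CpG ratio over 0.6) made up 92.8% of those with a YBX3 peak, 83.1% of those with other lists only and 65.3% of all. Among promoters of at least 31 lists they made up 94.5% with a YBX3 peak and 92.4% without.

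In 16 lists of genes with 294 different members, 8 members had a YBX3 peak at the promoter, to be read against the 1.46% of all protein-coding promoters. None of 15 G2/M genes with known CCAAT boxes, 12 MHC class II and antigen genes with a Y box, 15 tight junction and adhesion genes or 15 amino acid transport and tRNA charging genes had one. The other lists cut to 861 peaks had a median of 1, 0, 0 and 1 such members in these 4 groups. With 1.46% as the background a group of 15 holds on average less than 1 bound member, so that a count of 0 is uninformative. The lists hold only some members of each class. Outside them, the amino acid transporter genes SLC7A6 (34.66) and SLC38A3 (18.98) had a promoter peak. So did the tRNA charging genes EARS2 (41.30) and YARS2 (25.26) and PARD6B (49.31), a cell polarity gene of tight junctions. They were named after their values were seen.

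Of 15 S phase genes, MCM4, which encodes a subunit of the replicative helicase, had a peak with a signal of 32.14 (85 other lists). Of 20 heat and cold shock genes only CARHSP1 had a promoter peak, with a signal of 48.82 and 61 other lists, in addition to its intronic peak. Of 20 neuronal genes with RE1 sites 3 were bound: HTR5A (95.66), INSM2 (57.65, a second peak, closer to the TSS than the strongest one) and VGF, a neuropeptide precursor gene (40.83). The other lists had a median of 2 bound members in that group with a range of 0 to 5. Of 26 replication-dependent histone genes in the list only H2BC5 (35.50) was bound, while H2AC15 (41.06), a gene of the same class outside the list, was bound too. Of 20 housekeeping genes the glycolytic genes LDHA (38.84) and ENO1 (38.50) were bound.

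The remaining groups had no bound member on their lists: 16 ER chaperone and unfolded protein response genes, 16 cholesterol genes, 24 hepatocyte genes, 16 germ cell genes, 35 ribosomal protein genes, 18 immediate early genes and 14 genes of NFY and Y-box binding proteins. Outside the lists, the ribosomal protein genes RPS21 (48.37) and RPL31 (34.05) and ERN1 (42.04), a sensor gene of the unfolded protein response, had a promoter peak. These and H2AC15 were named after their values were seen. In the other lists cut to 861 peaks, the median was 2 bound members for the ribosomal protein genes, with 96 lists above 0, and 1 for the hepatocyte genes, with 84 lists above 0.

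At its own gene, on chromosome 12 from 10699089 to 10723323, YBX3 had no peak, and its nearest peak was 1544 kb from the TSS. The promoters of YBX1 and YBX2 had none either, with the nearest YBX3 peaks at 1025 kb and 621 kb. Across the 121 lists, 6 held the YBX3 promoter, 35 that of YBX1 and 0 that of YBX2.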

How the data were processed

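Peaks were called by the authors with ENCODE's pipeline against input libraries on hg38, and the deposited lists are the optimal set of an irreproducible discovery rate (IDR) analysis. For the aligner and the peak caller the sources used here name no version. The deposited signal of a peak (column 7) set its rank. The deposited score in column 5 was not used further, and column 9, labelled as a q-value but below 0 in 640 YBX3 peaks and so taken as a score, only gave an alternative ranking. Column 10 gave the summit. The input libraries had no file here.

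TSSs came from GENCODE 44 (38899 canonical TSSs, 20033 of them protein-coding) after chromosome names and lengths had been checked. A region was the union of overlapping peak centres of 100 bp from any preferred list. A panel of 29 motifs, CCAAT included, was searched on both strands in 100-bp windows at summits and 500 bp to either side. Lists were compared by exact permutation over lists, with functions tested on simulated data (Python 3.11.15, pandas 2.3.3, pysam 0.24.0). Named genes were those of the 10 strongest peaks, the 10 protein-coding promoters of highest signal (ties included) and the 10 strongest unshared peaks, the 8 promoter and 4 distal peaks of highest signal with CCAAT within 25 bp, and the bound members of the gene lists. The members and lists were chosen with earlier results of these data known. The 6 lists not marked as preferred were left out. Alternatives varied list length, ranking, class, input, windows and the rule for sharing.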

Additional observations from a re-analysis of the deposited data

How the results depend on the processing

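Of 68 alternatives over the 6 measures, 64 kept the direction. Adjusted exact permutation p-values were 0.16 to 1.00, which says little about stability, since the design scarcely allows one under 0.05. The promoter difference ran from -23.2 to -1.75 points. The CCAAT share at summits minus flanks, 0.478 points above the mean of the other lists as reported, changed sign in 4: -0.319 points with the other lists at full length, -0.982 with the strongest 400 peaks of each list, -2.35 with windows of 100 bp to either side and -0.878 without chromosomes 2, 6, 14, 16, 17 and 20. The cause was not tested. The difference in peaks in no other list ranged from 3.56 points, without the 6 chromosomes, to 25.2 points, with summits within 50 bp, and that in highly bound regions from -38.7 to -10.1 points, the smallest with the other lists at full length. The removal of the 6 chromosomes and the restriction to lists under 5000 peaks were chosen after seeing the data. No paired analysis was possible because each protein has 1 list. Leaving out a replicate was not possible for the same reason. Counts of reads were not used, so that depth, which sets how many peaks pass, could not be weighed, and a list of 861 peaks cannot show sites too weak to be called.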
